A study of Mus musculus with 9 samples.

Results

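Glycolysis, lactate export and the pentose phosphate branch were followed as a module of 35 genes in mouse pancreatic stellate cells. The 35 genes are the rows of the deposited count table, out of 17156, whose symbol was on a list of 36 written by hand from the textbook pathway. Pyruvate kinase stands on that list under both its current and its older symbol, and the table uses the older one, Pkm2. All 35 passed the filter on low counts, as did 13613 genes in all. The list runs from glucose transporters to lactate transporters (23 genes). It adds the gate to pyruvate oxidation made by pyruvate dehydrogenase and its kinases (5 genes), and ends with the pentose phosphate pathway (7 genes).

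Pancreatic stellate cells are the resident fibroblast-like cells of the pancreas. The libraries came from wild-type stellate cell lines from pancreata of C57BL/6J mice, so each line stands for the cells it was grown from and not for the tissue. For 4 days the cells were kept in pancreatic tumor organoid conditioned medium with 500 nM AZD1480, a JAK inhibitor (CM-JAKi), in the same conditioned medium without it (CM), or in control medium, DMEM with 5% FBS, that the labels also call Matrigel-conditioned (MG-CM). Each condition had 3 libraries of ribosome-depleted total RNA. PSC4 cells gave replicate 1 of every condition. PSC5-I gave replicate 2 and PSC5-II replicate 3, which the labels list as 1 line, PSC5. Each replicate number had its own source of conditioned medium. PSC4 and PSC5 thus differ in source too, and replicates 2 and 3 differ in source under 1 line label. The serum content of the conditioned medium, the organoids' genotype and the age of the mice are not given in the sources used here.

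Libraries held 25625806 to 32466018 counts. Fibroblast markers were high in every library, with sums of 9280, 8780 and 8980 CPM (counts scaled to the library total after TMM adjustment) in CM-JAKi, 4200, 5070 and 7140 CPM in CM, and 6420, 6980 and 7510 CPM in MG-CM. Of the 10 markers Des, a filament protein often used for stellate cells, was the lowest, at 0.924 to 3.32 CPM. The summed leukocyte list was 32.6, 15.9 and 19.9 CPM in CM-JAKi, 118, 34.0 and 53.3 CPM in CM, and 34.9, 22.8 and 32.9 CPM in MG-CM, and most of it was Cd14, while Ptprc stayed at or under 0.0387 CPM in all libraries. Cd14 was lower in CM-JAKi than in CM, at a log2 change of -1.74 (adjusted p = 0.0410, but 0.121 and 0.0554 without CM replicates 1 and 3, and 0.138 and 0.117 without CM-JAKi replicates 2 and 3).

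The 10 epithelial and ductal markers summed to 31.8 to 47.1 CPM in CM-JAKi, 42.1 to 45.9 CPM in CM and 38.1 to 53.5 CPM in MG-CM. Most of this was Sox9, Krt19 and Muc1, while Epcam stayed at or under 0.180 CPM and Cdh1 at or under 0.209 CPM. Of the 7 tested, 0 passed in CM against MG-CM, which is near the background, since 10.2% of all genes passed there. With the replicate number as a block in the fit, Spint1 was higher (adjusted p = 0.0121) and Krt19 lower (0.0156) in CM. The block called 11.6% of all genes higher and 12.8% lower. Spint1 and Muc1 were lower in CM-JAKi than in CM, at log2 changes of -1.63 and -1.83 (adjusted p = 0.00731 and 0.0326). Spint1 kept the call without each library, and Muc1 kept it only without CM-JAKi replicate 1, with an adjusted p of up to 0.118 otherwise. Krt19 and Krt8 went the other way, at log2 changes of 2.23 and 0.827 (adjusted p = 0.0914 and 0.622), and Krt19 passed with the block (0.00358). Krt19 had 4.4, 14 and 25.1 CPM in CM-JAKi and 0.765, 1.95 and 6.53 CPM in CM. The median log2 change of the 7 was -0.551. The 8 endothelial markers summed to 9.13 to 16.4 CPM in CM-JAKi, 3.48 to 5.18 CPM in CM and 6.59 to 8.78 CPM in MG-CM, with Pecam1 at or under 0.527 CPM. Of the 6 tested, Emcn and Tek were lower in CM than in MG-CM (adjusted p = 0.0114 and 0.0224) and higher in CM-JAKi than in CM (adjusted p = 0.000487 and 0.0255). Both lost the first call without MG-CM replicate 2 (0.0528 and 0.0874), and Tek lost it also without MG-CM replicate 1 (0.0533) or CM replicate 1 (0.0596). Tek lost the second without CM replicate 1 (0.0749) or CM-JAKi replicate 2 (0.0575) or 3 (0.0715). Vwf, Pecam1, Kdr and Erg were called in neither comparison. In CM-JAKi against CM their log2 changes were -0.831, -0.493, -0.229 and -0.108, and the median of the 6 was -0.169. Emcn had 6.31, 12.8 and 3.52 CPM in CM-JAKi, 0, 0 and 0.0328 CPM in CM, and 0.926, 0.914 and 0.531 CPM in MG-CM. It was also higher in CM-JAKi than in MG-CM (adjusted p = 0.0280, with 0.0917 to 0.120 without CM-JAKi replicate 2 or any 1 MG-CM library). Of 10 acinar and endocrine markers Cela1 alone was tested, at 5.57 to 7.81 CPM in CM-JAKi, 9.49 to 13.9 CPM in CM and 7.24 to 8.45 CPM in MG-CM. Cela1 was lower in CM-JAKi than in CM (adjusted p = 0.0428, with 0.0519 to 0.111 whichever of the 6 libraries was left out). The part that shifts in these markers play in the results was not tested.

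Glycolysis splits glucose into pyruvate in a chain of cytosolic enzymes and yields ATP without oxygen. Pyruvate can then be reduced to lactate and exported together with a proton, or be oxidized inside the mitochondrion by pyruvate dehydrogenase. The pyruvate dehydrogenase kinases switch that enzyme off. The pentose phosphate pathway branches off after hexokinase and gives NADPH and ribose. Glycolytic genes are classic targets of the hypoxia-inducible factors and of MYC, and in tumours fibroblasts with high glycolysis are known as a source of lactate.

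Along the route from glucose uptake to lactate transport, 9 of 23 genes were higher in CM than in MG-CM and 0 were lower. The 9 were Slc2a1, Hk2, Gpi1, Pfkl, Aldoc, Tpi1, Pkm2, Slc16a1 and Slc16a3. Their fold changes ran from 1.57 for Pkm2 to 8.99 for Slc16a3. Among the 5 genes of the pyruvate dehydrogenase gate Pdk1 was higher and Pdk2 lower. Of the 7 pentose phosphate genes none passed the test. A gene is called here at an adjusted p under 0.05 in edgeR's quasi-likelihood test over all 13613 genes. By that rule 4.85% of all genes were higher in CM than in MG-CM and 5.39% lower. The module had 10 higher and 1 lower of 35, with a median log2 change of 0.50 against 0.01 over all genes. In total RNA from a culture, a change in the share of cells of one kind and a change in RNA per cell cannot be told apart.

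The numbers pair the libraries, since those of 1 number share a line. With the replicate number as a block, 15 members were higher and 2 lower in CM than in MG-CM, beside 11.6% and 12.8% of all genes. The added genes were Slc2a3, Aldoa, Gapdh, Pgam1 and Ldha, which were higher, and Ldhb, which was lower.

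With the inhibitor most of these differences had the opposite sign. No group had the inhibitor in control medium. An effect of the inhibitor by itself and a change in the response to conditioned medium thus cannot be told apart. Between CM-JAKi and CM, 15 members were lower and 4 higher, where 8.93% of all genes were lower and 10.1% higher. The median log2 change was -0.66 over the module and 0.01 over all genes. From uptake to lactate transport 14 of 23 genes were lower in CM-JAKi and 2 higher. At the gate Pdk1 was lower and Pdk2 and Pdk4 were higher. With the replicate block 19 members were lower and 4 higher, beside 15.6% and 18.6% of all genes, and the added genes were Slc2a3, Pgam1, Pdk3 and G6pdx. Both comparisons use the same CM libraries, so a CM library that is high for a gene pushes them in opposite directions.

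**Figure D1:**
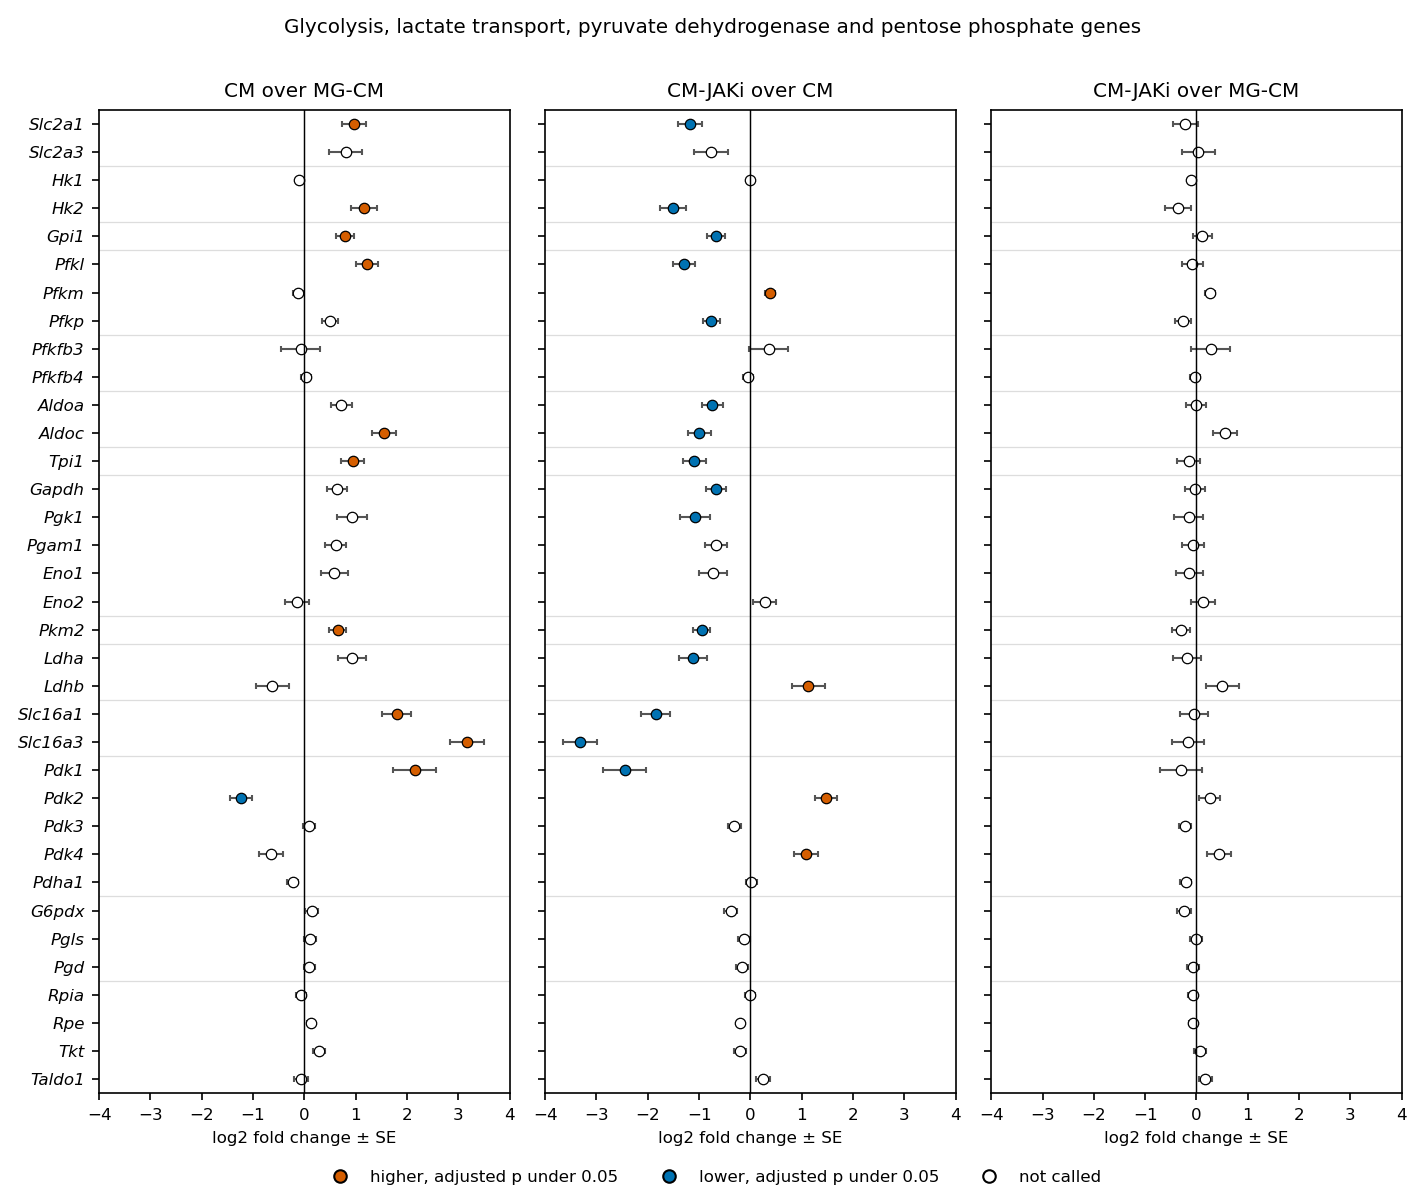
Log2 fold change with its standard error for the 35 genes in pathway order, top to bottom from glucose uptake to the pentose phosphate branch, in the 3 comparisons (3 libraries a group, edgeR); filled points passed an adjusted p of 0.05. Filled points crowd the right of the CM over MG-CM panel and the left of the CM-JAKi over CM panel, Slc16a3 is the farthest out at 3.17 and -3.33, the pentose phosphate rows sit near 0, and no point is filled in the CM-JAKi over MG-CM panel.

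Summed over the 35 genes, levels were 6991, 7515 and 8538 CPM in CM-JAKi replicates 1, 2 and 3, 16000, 9916 and 15190 CPM in CM, and 7362, 8273 and 9540 CPM in MG-CM. The CM libraries were above all others, and CM replicate 2 only narrowly so.

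Several of the promoters were read next, because the core of a hypoxia response element is a short word that can be looked for. RefSeq promoters of the build GRCm38.p6 were found for 34 of the 35 genes, Pkm2 under its current symbol Pkm, with 49 start sites in all. The words ACGTG and GCGTG were searched on both strands of the 250 bases before each start. A CACGTG, the E-box that MYC and its partners bind, holds ACGTG on both strands and so counts as 2 overlapping matches. Stretches are given as examples from Slc16a3, Slc16a1, Hk2, Pfkl and Pdk1, which were called higher in CM than in MG-CM, from Ldha and Pgk1, which were not, and from Pdk2, which was lower. Capitals mark ACGTG or GCGTG on either strand, each stretch is 5′ to 3′ on the strand of its gene, and the genes other than Slc16a3 have no annotated exon there.
Slc16a3, chr11:120949033-120949062, plus strand, inside an annotated exon of the gene: agcggtgACGTGcgcgggggACGTGccgcg
Slc16a1, chr3:104638454-104638543, plus strand: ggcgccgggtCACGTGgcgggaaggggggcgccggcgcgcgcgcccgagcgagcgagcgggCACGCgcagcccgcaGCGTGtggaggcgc
Hk2, chr6:82774475-82774524, minus strand: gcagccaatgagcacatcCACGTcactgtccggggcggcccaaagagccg
Pfkl, chr10:78009878-78009927, minus strand: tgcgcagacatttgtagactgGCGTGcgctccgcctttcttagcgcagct
Pgk1, chrX:106186940-106186989, plus strand: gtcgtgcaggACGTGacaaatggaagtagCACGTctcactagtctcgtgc
Ldha, chr7:46845644-46845793, plus strand: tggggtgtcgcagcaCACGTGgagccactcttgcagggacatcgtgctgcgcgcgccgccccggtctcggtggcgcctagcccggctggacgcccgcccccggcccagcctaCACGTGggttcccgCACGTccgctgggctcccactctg
Pdk1, chr2:71873124-71873173, plus strand: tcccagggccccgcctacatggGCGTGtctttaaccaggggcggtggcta
Pdk2, chr11:95041472-95041518, minus strand: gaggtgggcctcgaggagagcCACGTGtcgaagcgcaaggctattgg

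At least 1 of these words stood before a start of 30 of the 34 genes, and in 77.6% of the 49 member promoters. The same held for 54.6% of 12210 promoters of genes that passed the low-count filter and for 38.6% of all 32851 promoters. The count by gene has no such background. Promoters of a gene can overlap, as for Eno1, so a match can count more than once. For ACGTG alone the shares were 32.7% of member promoters, 21.1% of promoters of tested genes and 16.6% of all. Median GC content was 60.4% in member promoters, 59.6% in those of tested genes and 52.4% in all, and the words are rich in G and C. The genes without a match were Gpi1, Tpi1, Eno2 and Rpe, of which Gpi1 and Tpi1 were higher in CM. The E-box stood before a start of 5 genes, Pfkm, Pfkfb3, Ldha, Slc16a1 and Pdk2. It was in 10.2% of member promoters and in 8.21% of promoters of tested genes. Of these genes Slc16a1 was higher and Pdk2 lower in CM than in MG-CM, and the others were not called. The word TTCNNNGAA, the form of a STAT site, stood in 4.08% of member promoters, those of Pfkm and Aldoc, and in 6.04% of promoters of tested genes. A match is a run of letters and does not show that a factor binds there.

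Glucose enters through facilitated transporters. Slc2a1, the transporter GLUT1 of most proliferating cells, had 128, 124 and 105 CPM in CM-JAKi replicates 1, 2 and 3, 387, 180.1 and 243 CPM in CM, and 133, 133 and 148 CPM in MG-CM. All 3 CM libraries lay above the others, and CM replicate 1 stood highest. The log2 change was 0.97 ± 0.24 (SE) in CM against MG-CM (adjusted p = 0.0384) and -1.18 ± 0.24 in CM-JAKi against CM (adjusted p = 0.0130). The first call was lost without MG-CM replicate 1, 2 or 3 or CM replicate 1 or 3 (adjusted p = 0.0889, 0.134, 0.0818, 0.0529 and 0.0606). The second call was kept without any single library. Slc2a3, the high-affinity transporter GLUT3, was far scarcer per length, at 2.02 ± 0.41 CPM per kilobase of exon in CM beside 82.8 ± 32.5 for Slc2a1 (SD, n = 3). Its levels of 6.69 to 9.80 CPM in CM and 3.18 to 6.86 CPM in MG-CM overlapped, with a log2 change of 0.80 ± 0.33 (adjusted p = 0.148). It passed with the replicate block, at an adjusted p of 0.0131 in CM against MG-CM and 0.0124 in CM-JAKi against CM, with a term for the line (0.00992 and 0.00956), and in CM against MG-CM without MG-CM replicate 1 (0.0497).

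Hexokinase traps glucose as its phosphate, and the module holds its forms Hk1 and Hk2. Hk2, the inducible form, had 21.3, 23.5 and 36.4 CPM in CM-JAKi, 83.8, 57.4 and 90.5 CPM in CM, and 33.7, 27.7 and 42.2 CPM in MG-CM. CM lay above the other groups without overlap. Its log2 change was 1.16 ± 0.25 in CM against MG-CM (adjusted p = 0.0257), and -1.51 ± 0.26 in CM-JAKi against CM (adjusted p = 0.00662). The first call was lost without MG-CM replicate 1 or 2 or CM replicate 1 or 3 (adjusted p = 0.0662, 0.107, 0.0710 and 0.0633), and the second was kept without any single library. Hk1, the constitutive form, had 83.2 to 86.5 CPM in CM-JAKi, 82.8 to 88.7 CPM in CM and 87.3 to 94.5 CPM in MG-CM. Its log2 change in CM against MG-CM was -0.10, with a 95% interval of -0.25 to 0.06. Per kilobase of exon Hk1 was the more abundant form in every library. The ratio of Hk2 to Hk1 was 0.218, 0.235 and 0.378 in CM-JAKi, 0.875, 0.597 and 0.882 in CM, and 0.333, 0.265 and 0.386 in MG-CM.

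Gpi1 encodes the isomerase that turns glucose phosphate into fructose phosphate. It had 188, 249 and 275.5 CPM in CM-JAKi, 384, 327 and 429 CPM in CM, and 180.3, 227 and 249.6 CPM in MG-CM, and the CM libraries stood above the rest. The log2 change was 0.80 ± 0.18 in CM against MG-CM (adjusted p = 0.0269) and -0.68 ± 0.18 in CM-JAKi against CM (adjusted p = 0.0309). Without MG-CM replicate 1 or 2 or CM replicate 1 or 3 the first call was lost (adjusted p = 0.0671, 0.0966, 0.0688 and 0.0676). Without CM replicate 1 or 3 or CM-JAKi replicate 1 or 2 the second was lost (adjusted p = 0.0729, 0.0776, 0.0600 and 0.0818).

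Phosphofructokinase makes the committed step, from subunits named for liver, muscle and platelet. The liver subunit Pfkl had 99.8, 111 and 117 CPM in CM-JAKi, 313, 171 and 319 CPM in CM, and 111, 111 and 124 CPM in MG-CM. CM replicates 1 and 3 were far above the rest and CM replicate 2 between. For Pfkl the log2 change was 1.22 ± 0.21 in CM against MG-CM (adjusted p = 0.0144, and 0.0710 without MG-CM replicate 2), and -1.29 ± 0.21 in CM-JAKi against CM (adjusted p = 0.00588). The muscle subunit Pfkm went its own way, with 66.5, 78.5 and 73.3 CPM in CM-JAKi, 58.5, 49.6 and 60.0 CPM in CM, and 59.7, 64.3 and 58.6 CPM in MG-CM. It was higher in CM-JAKi than in CM, at a log2 change of 0.38 ± 0.10 (adjusted p = 0.0315), a call lost without CM replicate 1 or 2 or CM-JAKi replicate 2 or 3 (adjusted p = 0.0579, 0.0827, 0.123 and 0.0845). In CM against MG-CM its log2 change was -0.12 (95% interval -0.34 to 0.10). The platelet subunit Pfkp had 28.8, 26.2 and 30.0 CPM in CM-JAKi, 61.6, 39.8 and 42.4 CPM in CM, and 32.1, 35.0 and 34.6 CPM in MG-CM. It was lower in CM-JAKi than in CM, at a log2 change of -0.76 ± 0.16 (adjusted p = 0.0137, and 0.0575 without CM-JAKi replicate 2). Its log2 change in CM against MG-CM, 0.50 ± 0.16, had an adjusted p of 0.0769. Per kilobase the ratio of Pfkl to Pfkm was 1.21, 1.13 and 1.28 in CM-JAKi, 4.31, 2.77 and 4.27 in CM, and 1.49, 1.39 and 1.70 in MG-CM.

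Pfkfb3 and Pfkfb4 encode the bifunctional enzymes that set the level of the sugar bisphosphate activating phosphofructokinase. Neither passed the test in any comparison. Pfkfb3 ranged over 10.3 to 25.6 CPM in CM-JAKi, 9.23 to 16.9 CPM in CM and 10.2 to 15.2 CPM in MG-CM, with a 95% interval of -0.94 to 0.79 for its log2 change in CM against MG-CM. Pfkfb4 ranged over 18.1 to 21.2, 19.2 to 20.9 and 18.6 to 20.9 CPM in these groups, with an interval of -0.20 to 0.24. Libraries of Pfkfb3 were spread more widely than those of Pfkfb4 in each of the 3 groups.

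Aldolase splits the sugar, and the triose phosphate isomerase Tpi1 converts its products into each other. Aldoc, the brain-type aldolase and the scarce form here, had 3.76, 5.24 and 5.96 CPM in CM-JAKi, 9.14, 8.27 and 12.4 CPM in CM, and 3.29, 2.94 and 3.94 CPM in MG-CM. CM was above both other groups in every library. Its log2 change was 1.55 ± 0.24 in CM against MG-CM (adjusted p = 0.00991, and 0.0557 without MG-CM replicate 2). In CM-JAKi against CM it fell by 0.996 ± 0.230 on the log2 scale (adjusted p = 0.0203, but 0.0658 without CM-JAKi replicate 2 and 0.0566 without CM replicate 3). Aldoa, the common form, had 481, 598 and 665 CPM in CM-JAKi, 1069, 749.7 and 1093 CPM in CM, and 473.5, 622 and 669 CPM in MG-CM. The CM libraries lay above the others, with replicate 2 nearest to them. Aldoa missed the threshold in CM against MG-CM (log2 change 0.72 ± 0.20, adjusted p = 0.0506) and passed it with the replicate block (0.0223) and without CM replicate 2 (0.0338). It was lower in CM-JAKi than in CM, at a log2 change of -0.74 ± 0.20 (adjusted p = 0.0325), and lost that call without CM replicate 1 or 3 or CM-JAKi replicate 1 or 2 (adjusted p = 0.0904, 0.0824, 0.0733 and 0.0931).

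Tpi1 had 329, 386.5 and 449 CPM in CM-JAKi, 995, 539.5 and 955.5 CPM in CM, and 394, 434 and 464 CPM in MG-CM. CM replicates 1 and 3 were about equally high, and CM replicate 2 was the CM library nearest to the controls. The log2 change was 0.95 ± 0.23 in CM against MG-CM (adjusted p = 0.0326) and -1.10 ± 0.23 in CM-JAKi against CM (adjusted p = 0.0131). The first call was lost without MG-CM replicate 1, 2 or 3 or CM replicate 1 or 3 (adjusted p = 0.0834, 0.118, 0.0720, 0.0966 and 0.0819). The second was lost without CM-JAKi replicate 2 (0.0536).

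The lower chain from Gapdh to enolase holds some of the most abundant messages of the module. Per kilobase of exon Gapdh had 940 ± 204 CPM in CM, against 603 ± 93 in MG-CM (SD, n = 3). None of these 5 genes was called in CM against MG-CM, while Gapdh and Pgk1 were lower in CM-JAKi than in CM. Several genes of this part of the chain have many processed pseudogenes, among which estimated counts can be divided, so single levels of Gapdh, Pgk1, Pgam1, Eno1, Aldoa, Tpi1, Pkm2 and Ldha carry that uncertainty.

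Gapdh, the dehydrogenase that makes the NADH of glycolysis, had 766, 879.9 and 1017 CPM in CM-JAKi, 1552, 1055 and 1608 CPM in CM, and 776, 878 and 1050 CPM in MG-CM. Pgk1, the kinase of the first ATP-yielding step, had 499, 552 and 698.5 CPM in CM-JAKi, 1614, 724 and 1375 CPM in CM, and 513, 668 and 764 CPM in MG-CM. In both genes CM replicate 2 was close to the highest control library, and for Pgk1 it was under it. In CM-JAKi against CM the log2 change of Gapdh was -0.66 ± 0.19 (adjusted p = 0.0442). The call of Gapdh was lost without CM replicate 1 or 3 or CM-JAKi replicate 1, 2 or 3 (adjusted p = 0.118, 0.112, 0.0993, 0.127 and 0.0585), and under scaling by library size alone (0.0513). The log2 change of Pgk1 was -1.08 ± 0.29 (adjusted p = 0.0325), and its call was lost without the same libraries (adjusted p = 0.0977, 0.0753, 0.0755, 0.109 and 0.0521). In CM against MG-CM the log2 change was 0.64 ± 0.19 for Gapdh (adjusted p = 0.0690) and for Pgk1 0.93 ± 0.29 (adjusted p = 0.0736). The replicate block gave an adjusted p of 0.0244 for Gapdh and 0.0526 for Pgk1, and leaving out CM replicate 2 gave 0.0333 for Gapdh and 0.0206 for Pgk1.

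Pgam1, the mutase, had 394 ± 54 CPM in CM-JAKi, 627 ± 168 CPM in CM and 411 ± 65 CPM in MG-CM (SD, n = 3). Its adjusted p was 0.102 in CM against MG-CM and 0.0569 in CM-JAKi against CM, and with the replicate block 0.0446 and 0.0252. Without CM replicate 2 it was 0.0298 and 0.0147. Eno1, the common enolase, had 598 to 934 CPM in CM-JAKi, 860 to 1521 CPM in CM and 630 to 1029 CPM in MG-CM, and the groups overlapped. It missed the threshold in both comparisons with CM, and passed it in CM-JAKi against CM with DESeq2 (adjusted p = 0.0284) and without CM replicate 2 (0.0390). The neuronal enolase Eno2 had 54.5 to 58.1 CPM in CM-JAKi, 34.8 to 56.1 CPM in CM and 35.3 to 66.8 CPM in MG-CM, with a 95% interval of -0.67 to 0.38 for its log2 change in CM against MG-CM.

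Pkm2, here the whole pyruvate kinase gene and not its splice form, had 1640, 1587 and 1655 CPM in CM-JAKi, 3604, 2434 and 3402 CPM in CM, and 1832, 1874 and 2301 CPM in MG-CM. Every CM library was above every other library, and the CM-JAKi libraries were below all MG-CM libraries. The log2 change was 0.65 ± 0.17 in CM against MG-CM (adjusted p = 0.0438) and -0.95 ± 0.17 in CM-JAKi against CM (adjusted p = 0.00773). Without MG-CM replicate 1, 2 or 3 or CM replicate 1 or 3 the first call was lost (adjusted p = 0.100, 0.156, 0.0590, 0.119 and 0.103), and without any single library the second was kept.

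**Figure D2:**
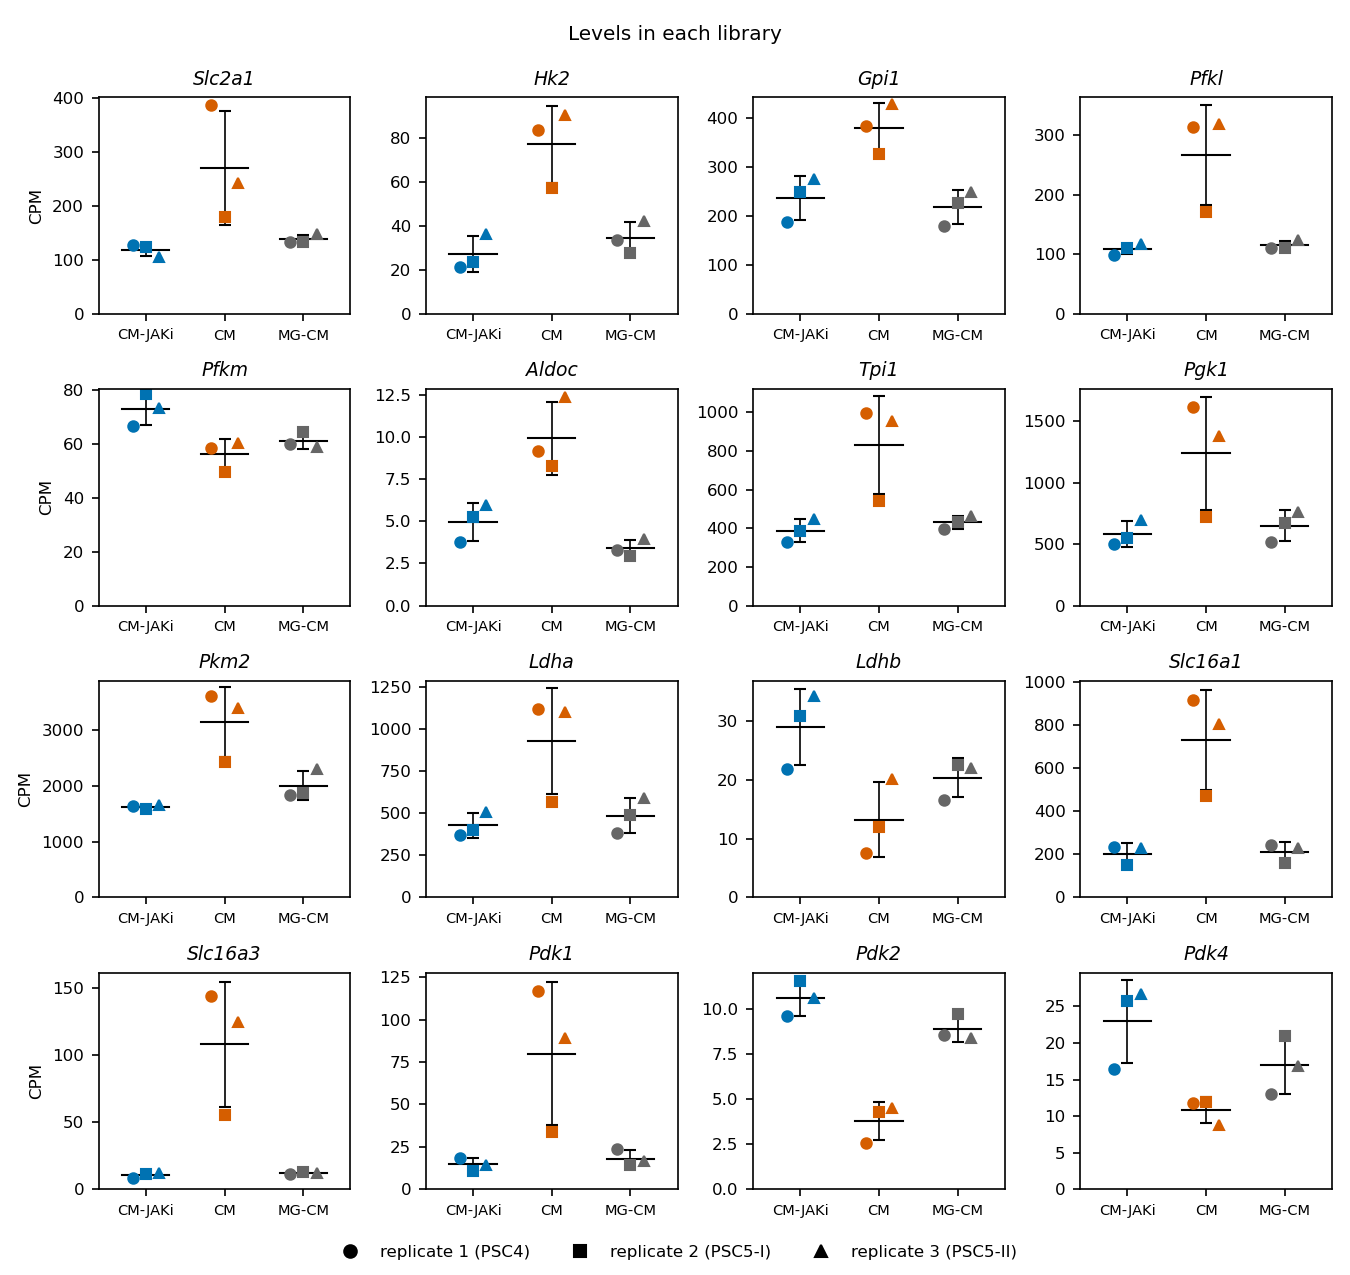
Level in CPM of 16 members in each of the 9 libraries, with linear axes that start at 0; marker shapes give the replicate number, and the line and bar give the mean and SD of 3 libraries. In most panels CM stands above CM-JAKi and MG-CM with replicate 2 (square) the lowest CM point, as in Slc16a3 at 144, 55.5 and 124 CPM, while Pfkm, Ldhb, Pdk2 and Pdk4 are lower in CM than in CM-JAKi.

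Lactate dehydrogenase is a tetramer of A and B chains, of which A is the form usual in glycolytic tissue. The A chain Ldha had 371, 402 and 511 CPM in CM-JAKi, 1122, 569.5 and 1102 CPM in CM, and 381, 491 and 589 CPM in MG-CM. CM replicates 1 and 3 stood well above the rest and CM replicate 2 within the range of MG-CM. Ldha was lower in CM-JAKi than in CM, at a log2 change of -1.12 ± 0.27 (adjusted p = 0.0246), a call lost without CM replicate 1 or 3 or CM-JAKi replicate 1 or 2 (adjusted p = 0.0734, 0.0623, 0.0594 and 0.0875). Against MG-CM the log2 change in CM was 0.93 ± 0.27 (adjusted p = 0.0622), with 0.0328 under the replicate block and 0.0205 without CM replicate 2.

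The B chain moved the opposite way. Ldhb had 21.8, 30.8 and 34.3 CPM in CM-JAKi, 7.61, 12.0 and 20.1 CPM in CM, and 16.5, 22.5 and 22.1 CPM in MG-CM, so that CM-JAKi and CM did not overlap. It was higher in CM-JAKi than in CM, at a log2 change of 1.13 ± 0.33 (adjusted p = 0.0423). That call was lost without CM replicate 1 or 2 or CM-JAKi replicate 2 or 3 (adjusted p = 0.0898, 0.108, 0.124 and 0.116), and with no filter on low counts (0.0539). Its log2 change in CM against MG-CM was -0.62 ± 0.32 (adjusted p = 0.249), and 0.0305 with the replicate block. Per kilobase of exon the ratio of Ldha to Ldhb was 11.7, 8.99 and 10.2 in CM-JAKi, 101, 32.6 and 37.8 in CM, and 15.9, 15 and 18.4 in MG-CM. All 3 CM ratios were above the rest, and all 3 CM-JAKi ratios below those of MG-CM.

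**Figure D3:**
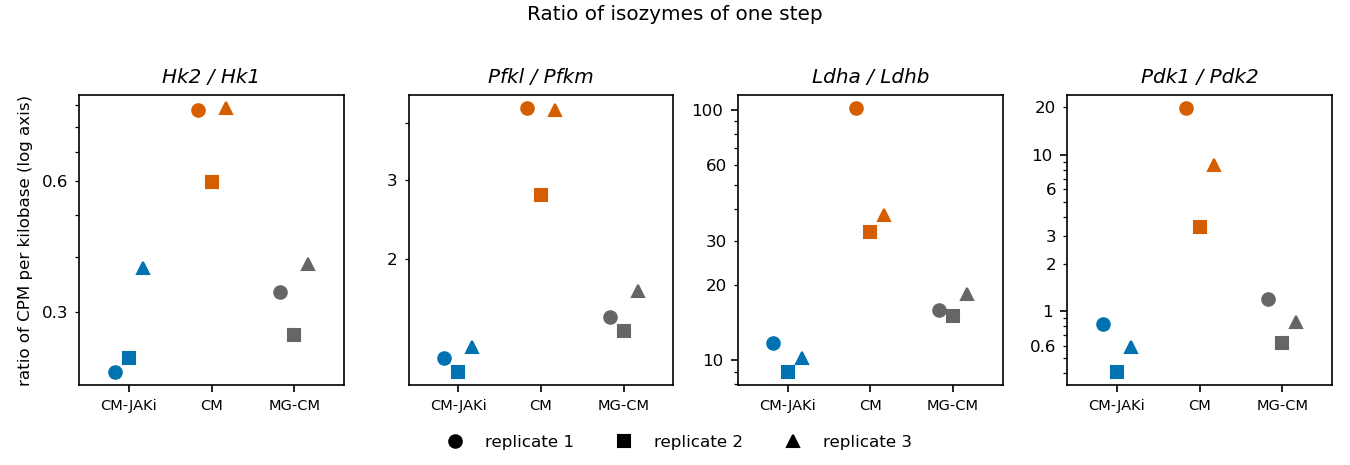
Ratio of CPM per kilobase of exon between isozymes of 1 step in each library, on logarithmic axes, with CM-JAKi, CM and MG-CM from left to right and marker shapes for the replicate number. In all 4 panels the CM points lie above both other groups, and for Pdk1 over Pdk2 they span 3.44 to 19.7 against 0.629 to 1.19 in MG-CM.

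The lactate transporters had the largest changes of the route. Slc16a3, which encodes MCT4, the transporter typical of cells that export lactate, had 8.56, 11.6 and 12.1 CPM in CM-JAKi, 144, 55.5 and 124 CPM in CM, and 11.2, 12.8 and 12.0 CPM in MG-CM. The lowest CM library was over 4 times the highest of all others. Slc16a3 had a log2 change of 3.17 ± 0.33 in CM against MG-CM (adjusted p = 0.00545) and -3.33 ± 0.33 in CM-JAKi against CM (adjusted p = 0.000647). Of the members called in CM against MG-CM, Slc16a3 was the only one that stayed called without each library in turn, with a highest adjusted p of 0.0348. Slc16a1, which encodes the more widespread MCT1, had 233, 149 and 227 CPM in CM-JAKi, 917, 470 and 807 CPM in CM, and 242, 158 and 230.5 CPM in MG-CM. CM was again clear of both other groups, which overlapped. Its log2 change was 1.80 ± 0.29 in CM against MG-CM (adjusted p = 0.0114, and 0.0557 without MG-CM replicate 2) and -1.85 ± 0.29 in CM-JAKi against CM (adjusted p = 0.00499). Per kilobase Slc16a1 was the more abundant transporter in every library. Its ratio to Slc16a3 was 27.4, 13.0 and 18.8 in CM-JAKi, 6.42, 8.52 and 6.52 in CM, and 21.8, 12.4 and 19.3 in MG-CM.

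At the pyruvate dehydrogenase gate, Pdk1 was higher and Pdk2 lower in CM than in either other group. Both encode kinases that switch off pyruvate dehydrogenase. Pdk1, a known target of the hypoxia-inducible factors, had 18.4, 10.95 and 14.4 CPM in CM-JAKi, 117, 33.9 and 89.3 CPM in CM, and 23.5, 14.1 and 16.5 CPM in MG-CM. The CM libraries were above the rest but spread over more than 3-fold. The log2 change was 2.15 ± 0.42 in CM against MG-CM (adjusted p = 0.0199, but 0.0889 without replicate 2 of MG-CM and 0.0609 without its replicate 3) and -2.45 ± 0.43 in CM-JAKi against CM (adjusted p = 0.00736). Pdk2, the kinase most widespread across tissues, had 9.64, 11.6 and 10.6 CPM in CM-JAKi, 2.57, 4.28 and 4.53 CPM in CM, and 8.57, 9.71 and 8.37 CPM in MG-CM. The CM libraries were below all others. Its log2 change was -1.23 ± 0.21 in CM against MG-CM (adjusted p = 0.0138, and 0.0696 without MG-CM replicate 2) and 1.48 ± 0.21 in CM-JAKi against CM (adjusted p = 0.00351). Per kilobase Pdk1 exceeded Pdk2 in all 3 CM libraries, with ratios of 19.7, 3.44 and 8.54. The ratio was 0.829, 0.410 and 0.590 in CM-JAKi and 1.19, 0.629 and 0.851 in MG-CM.

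Pdk4, the kinase induced by fasting and fatty acids, had 16.4, 25.8 and 26.7 CPM in CM-JAKi, 11.8, 11.9 and 8.79 CPM in CM, and 13.1, 21.01 and 16.8 CPM in MG-CM. It was higher in CM-JAKi than in CM, at a log2 change of 1.09 ± 0.24 (adjusted p = 0.0158, but 0.0645 without CM-JAKi replicate 2 and 0.0522 without CM-JAKi replicate 3). In CM against MG-CM its groups did not overlap either, and the log2 change of -0.65 ± 0.24 had an adjusted p of 0.112. Pdk3 had 67.1 to 74.9 CPM in CM-JAKi, 70.6 to 99.9 CPM in CM and 81.1 to 85.5 CPM in MG-CM. Its log2 change in CM-JAKi against CM was -0.31 ± 0.12, with an adjusted p of 0.109, and of 0.0469 with the replicate block and 0.0147 without CM replicate 2. Pdha1, the catalytic subunit of the dehydrogenase that the kinases act on, had 215 ± 16 CPM in CM-JAKi, 212 ± 27 CPM in CM and 247 ± 10 CPM in MG-CM (SD, n = 3). Its 95% interval in CM against MG-CM was -0.47 to 0.02 on the log2 scale.

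In the pentose phosphate pathway the count of calls was 0 of 7 in each comparison. Of all genes 10.2% were called in either direction in CM against MG-CM, 19.0% in CM-JAKi against CM and 1.01% in CM-JAKi against MG-CM, so 0 among 7 genes is near the background. At an unadjusted p under 0.05 Tkt was higher in CM than in MG-CM, and G6pdx and Rpe were lower in CM-JAKi than in CM, and DESeq2 called these last pair. G6pdx, the enzyme that commits glucose phosphate to the pathway, had 143, 122 and 141 CPM in CM-JAKi, 214, 159 and 158 CPM in CM, and 150.4, 161 and 168 CPM in MG-CM. CM replicate 1 stood apart, and the other CM libraries lay within the MG-CM range. Its log2 change was 0.14 ± 0.13 in CM against MG-CM, with a 95% interval of -0.15 to 0.44, and -0.39 ± 0.13 in CM-JAKi against CM (adjusted p = 0.0698, and 0.0419 with the replicate block). Pgls and Pgd, which carry the oxidative arm on, had intervals of -0.15 to 0.38 and -0.15 to 0.35 in CM against MG-CM.

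The non-oxidative arm passes sugars back to glycolysis. Tkt, the transketolase, had 239, 255 and 282 CPM in CM-JAKi, 311, 269.5 and 312 CPM in CM, and 215, 249 and 272 CPM in MG-CM. Its log2 change in CM against MG-CM was 0.28 ± 0.12, with an interval of 0.02 to 0.54 and an adjusted p of 0.153. Taldo1, Rpia and Rpe had intervals of -0.37 to 0.24, -0.27 to 0.14 and -0.04 to 0.28. The upper ends of all 7 intervals were at most 0.54. Whether the arms differ was not tested as a set. Summed over the 7 genes, levels were 639, 645 and 714 CPM in CM-JAKi, 806, 699 and 754 CPM in CM, and 609.9, 690.4 and 724 CPM in MG-CM.

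In CM-JAKi against MG-CM 0 of 35 members were called, by edgeR, with the replicate block or by DESeq2. Of all genes 0.286% were higher and 0.720% lower there, and with the block 1.85% and 2.40%. At an unadjusted p under 0.05 Pfkm and Aldoc were higher, with log2 changes of 0.26 ± 0.10 and 0.55 ± 0.23. Log2 changes ran from -0.35 for Hk2 to 0.55 for Aldoc. The lowest and highest bounds of the 95% intervals over the 35 genes were -1.24 and 1.24, so a change of over 2-fold lies within the intervals of single genes. CM-JAKi lay wholly above MG-CM for 1 member, Pfkm, where 8.87% of all genes did so. It lay wholly below for 8 members, Slc2a1, Hk1, Pfkp, Pkm2, Pdk3, Pdha1, G6pdx and Rpe, where 8.24% of all genes did so. For Slc16a3 the interval was -0.87 to 0.55 and for Slc16a1 -0.68 to 0.59.

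CM replicate 2 gave the smallest response across the module. Taken by same-numbered pairs of libraries, the median log2 ratio of CM to MG-CM over the 35 genes was 0.53 in replicate 1, 0.12 in replicate 2 and 0.40 in replicate 3. The pair of replicate 2 was the smallest of the 3 in 22 of 35 members and in 9 of the 11 called. Over all genes tested it was the smallest in 30.6%, and over the genes called in 25.1%, where replicate 3 was the smallest in 56.8%. For CM-JAKi against CM the medians were -0.68, -0.22 and -0.50, and replicate 2 was the smallest in 22 of 35 members and in 33.5% of all genes. Replicates 2 and 3 carry the same line label, PSC5, and differ in the source of medium. Whether PSC5-I and PSC5-II were derived separately is not given in the sources used here. The change was in the same direction in all 3 pairs for 25 of 35 members in CM against MG-CM, 20 upward and 5 downward. How many of all genes did so was not counted, so this number has no background beside it. CM lay wholly above MG-CM for 14 members and wholly below for 2, where 16.0% and 16.8% of all genes did so. CM-JAKi lay wholly below CM for 18 members and wholly above for 4, where 18.3% and 20.1% of all genes did so.

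**Figure D4:**
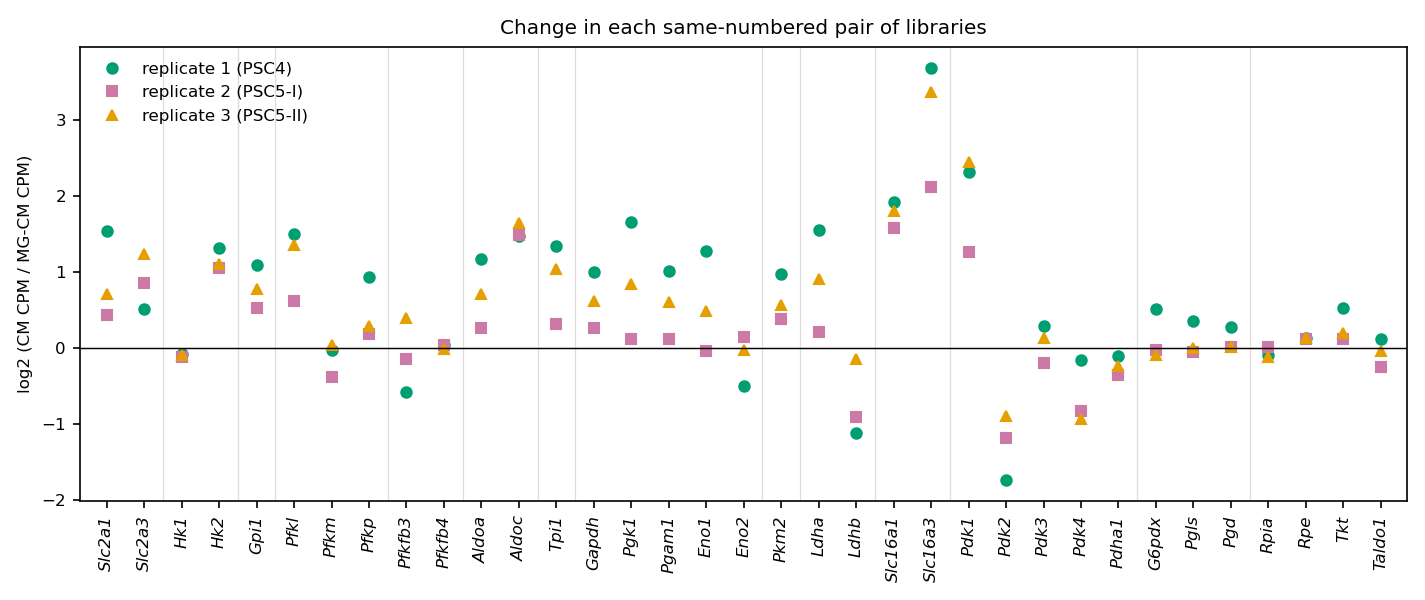
Log2 ratio of CM to MG-CM for each of the 35 members in pathway order, with 1 point for each same-numbered pair of libraries. Replicate 2 (squares) lies closest to 0 in 22 of the 35 genes. Among the pentose phosphate genes at the right, replicate 1 of G6pdx, Pgls, Pgd and Tkt lies at 0.507, 0.354, 0.282 and 0.531. The other points of these genes lie between -0.249 and 0.199.

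A test of whether the change differs between PSC5 and PSC4 found none of the 35 genes in any comparison, and of all genes 31 for the change in CM relative to MG-CM, 50 for that in CM-JAKi relative to CM, and 0 for CM-JAKi relative to MG-CM. At an unadjusted p under 0.05 there were 4, 4 and 0 of the 35 members, beside 2114, 1755 and 526 of all 13613 genes. For CM relative to MG-CM the members were Slc2a1, Pfkp, Pdk2 and G6pdx. PSC4 has 1 library a group, which is assumed to vary like those of PSC5.

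Further enzymes around the route and its regulators were read from wider lists. Their counts stand beside 4.85% higher and 5.39% lower of all genes in CM against MG-CM. In CM-JAKi against CM these shares were 10.1% higher and 8.93% lower. With the replicate block they were 11.6% and 12.8%, then 18.6% and 15.6%. Without the block, counts among the pentose phosphate and NADPH genes and the pyruvate and citric acid cycle genes were close to the shares. Of 16 regulators 1 was higher and 0 lower in CM than in MG-CM. In CM-JAKi against CM 0 of the regulators were higher and 3 lower. Single genes of these lists are given as values and say nothing about the lists. Of 36 genes of glycolysis, glycogen and lactate handling, 6 were higher and 0 lower in CM than in MG-CM, with a median log2 change of 0.10. With the replicate block the count was 8 higher and 6 lower. In CM-JAKi against CM 3 were higher and 6 lower, and with the block 9 and 8. Gys1, the muscle glycogen synthase, had 31.8 ± 1.2 CPM in CM-JAKi, 64.3 ± 13.2 CPM in CM and 35.8 ± 2.4 CPM in MG-CM (SD, n = 3). The change on the log2 scale was 0.84 ± 0.14 in CM against MG-CM (adjusted p = 0.0122, and 0.0635 without MG-CM replicate 2) and -1.02 ± 0.14 in CM-JAKi against CM (adjusted p = 0.00290). Gbe1, which branches glycogen, was higher in CM than in MG-CM, at a log2 change of 0.77 ± 0.18 (adjusted p = 0.0310, but 0.0754, 0.107 and 0.0771 when replicate 1, 2 or 3 of MG-CM was left out). Pgm2, a phosphoglucose mutase symbol that older and newer mouse annotations give to different genes, was higher too, at a log2 change of 1.06 ± 0.25 (adjusted p = 0.0326), a call lost if any MG-CM library or CM replicate 1 or 3 was left out (0.0790, 0.116, 0.0827, 0.0894 and 0.0775). In CM-JAKi against CM Pgm2 was lower, at a log2 change of -1.02 ± 0.25 (adjusted p = 0.0248), but not without CM replicate 1 or 3 or CM-JAKi replicate 1 or 2 (0.0691, 0.0607, 0.0597 and 0.0851). G6pc3, a glucose phosphatase, was lower in CM-JAKi than in CM, at a log2 change of -0.52 ± 0.10 (adjusted p = 0.00980) and kept that call without each library.

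Of 14 further genes of the pentose phosphate pathway and NADPH, 1 was higher and 1 lower in CM than in MG-CM, and 2 were higher and 1 lower in CM-JAKi than in CM. Idh2, the mitochondrial NADP isocitrate dehydrogenase, had 168 ± 2 CPM in CM-JAKi, 106 ± 11.1 CPM in CM and 166 ± 13 CPM in MG-CM (SD, n = 3). For Idh2 the log2 change was -0.65 ± 0.10 in CM against MG-CM (adjusted p = 0.00990, and 0.0519 without MG-CM replicate 2) and 0.66 ± 0.10 in CM-JAKi against CM (adjusted p = 0.00354). Mthfd2, the mitochondrial folate enzyme, went up in CM, with 84.4 ± 5.2 CPM in CM-JAKi, 185 ± 49 CPM in CM and 90.8 ± 20.8 CPM in MG-CM. The log2 estimate was 1.03 ± 0.21 in CM against MG-CM (adjusted p = 0.0226, but 0.0520 without replicate 1 of MG-CM, 0.0880 without its replicate 2 and 0.0522 without CM replicate 1) and -1.13 ± 0.21 in CM-JAKi against CM (adjusted p = 0.00948). Shpk, the sedoheptulose kinase, was higher in CM-JAKi than in CM, at a log2 change of 1.04 ± 0.30 (adjusted p = 0.0429), and not without CM replicate 1 or 3 or CM-JAKi replicate 2 or 3 (0.125, 0.103, 0.0988 and 0.134).

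Of 28 genes of pyruvate entry and the citric acid cycle, 1 was higher and 2 lower in CM than in MG-CM, and 4 were higher and 1 lower in CM-JAKi than in CM. With the replicate block these counts were 1 and 5, then 9 and 2, beside 11.6% and 12.8%, then 18.6% and 15.6% of all genes. Pdp1, the phosphatase that reverses the work of the kinases on pyruvate dehydrogenase, had 50.4 ± 4.4 CPM in CM-JAKi, 40.8 ± 0.4 CPM in CM and 65.3 ± 3.6 CPM in MG-CM (SD, n = 3). Its log2 change in CM against MG-CM was -0.68 ± 0.08 (adjusted p = 0.00734), called without each library too. The other phosphatase, Pdp2, was higher, at a log2 change of 0.52 ± 0.13 (adjusted p = 0.0373), and lost that without MG-CM replicate 1, 2 or 3 or CM replicate 1 or 3 (0.0722, 0.140, 0.0673, 0.0755 and 0.0541). In CM-JAKi against CM Pdp2 was lower, at a log2 change of -0.50 ± 0.13 (adjusted p = 0.0291), but not without CM replicate 1 or CM-JAKi replicate 2 or 3 (0.0575, 0.0865 and 0.0820). Brp44, the older symbol of a subunit of the mitochondrial pyruvate carrier, had 25.2 ± 1.2 CPM in CM-JAKi, 17.7 ± 1.0 CPM in CM and 22.2 ± 0.3 CPM in MG-CM. It was higher in CM-JAKi than in CM, at a log2 change of 0.51 ± 0.08 (adjusted p = 0.00582). In CM against MG-CM it was lower, at a log2 change of -0.32 ± 0.08 (adjusted p = 0.0441), with 0.0596 to 0.128 whichever of the 6 libraries was left out. Pcx, which carboxylates pyruvate, was higher in CM-JAKi than in CM, at a log2 change of 0.74 ± 0.19 (adjusted p = 0.0300), but not without CM replicate 2 or CM-JAKi replicate 1, 2 or 3 (0.0721, 0.0642, 0.0902 and 0.0571).

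Among 16 transcriptional and signalling regulators of glycolysis, Hif1a alone was called in CM against MG-CM. Hif1a, the oxygen-regulated subunit of hypoxia-inducible factor 1, had 243 ± 31 CPM in CM-JAKi, 762 ± 261 CPM in CM and 280 ± 39 CPM in MG-CM (SD, n = 3). Hif1a had a log2 change of 1.45 ± 0.25 in CM against MG-CM (adjusted p = 0.0137, and 0.0700 without MG-CM replicate 2) and -1.65 ± 0.25 in CM-JAKi against CM (adjusted p = 0.00443). Myc, with 32.4 ± 6.6 CPM in CM-JAKi, 73.8 ± 15.9 CPM in CM and 46.0 ± 5.4 CPM in MG-CM, was lower in CM-JAKi than in CM, at a log2 change of -1.19 ± 0.19 (adjusted p = 0.00548). In CM against MG-CM its log2 change was 0.68 ± 0.19 (adjusted p = 0.0536, and 0.0491 with the replicate block). Stat3, the JAK-activated factor, was lower in CM-JAKi than in CM, at a log2 change of -0.51 ± 0.11 (adjusted p = 0.0147, and 0.0674 without CM-JAKi replicate 2). In the fibroblast marker list Vim was lower in CM than in MG-CM, at a log2 change of -1.03 ± 0.26 (adjusted p = 0.0415), and not without CM replicate 1 or 2 or MG-CM replicate 2 or 3 (0.115, 0.0904, 0.146 and 0.109). Col1a1 and Col1a2 were higher in CM-JAKi than in CM, at log2 changes of 0.74 ± 0.16 and 1.30 ± 0.20 (adjusted p = 0.0147 and 0.00473).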

How the data were processed

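Libraries were made with a strand-specific TruSeq total RNA kit after ribosomal depletion, per the labels' protocols. Tools given in the submitters' processing notes, with no roles, are RSEM 1.2.29, STAR 2.5.1b and DESeq2, and builds are mm9 and NCBIM37. The deposited values are whole numbers not scaled between libraries, and were taken to be expected counts that the authors had rounded, a reading that rests on RSEM being named. Counts were fitted in R 4.3.3 with edgeR 4.0.16 (filterByExpr, minimum count 10 and total 15; TMM; robust quasi-likelihood fit of all 9 libraries with group only), with Benjamini-Hochberg adjustment over 13613 genes. SE is the log2 change over the root of F, and intervals are 95%. Exon lengths for levels per kilobase came from GENCODE on GRCm38, another build than the counts, so they are approximate.

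Libraries of the same number share a line, and after group means were removed they correlated at 0.291 to 0.680 over 9 pairs, against -0.536 to 0.279 over 18 other pairs. Chi-square per degree of freedom between replicates was 15.5 to 113, so no library repeats another. Members, gene lists and tests were chosen with earlier results of these data known, so counts within them are descriptions. Values per library are given for members called in CM against MG-CM or CM-JAKi against CM, or changed at least 2-fold. Of each further list up to 3 called genes with the smallest p in a comparison are named, mostly by their means. Alternatives were DESeq2 1.42.0, other scalings and filters, the replicate block, a line term, fits of 2 groups, and each library left out. The smaller fits leave a group with 2 libraries.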

Additional observations from a re-analysis of the deposited data

How the results depend on the processing

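Counts below are in the order higher, then lower, and run through CM against MG-CM, then CM-JAKi against CM, then CM-JAKi against MG-CM. DESeq2 called 16 members higher in CM than in MG-CM, and of all genes 1192 and 1294 there and 194 and 310 in CM-JAKi against MG-CM. The replicate block called 15 members higher and 2 lower in CM than in MG-CM, and of all genes 1577 and 1748, then 2529 and 2126, then 252 and 327. A term for the stellate line called 2 members lower in CM than in MG-CM, and of all genes 1551 and 1665, then 2422 and 2110, then 229 and 294. Fits of only the 2 groups compared called of all genes 362 and 431 in CM against MG-CM, and 836 higher, among them 2 members, in CM-JAKi against CM. The main counts were 660 and 734, then 1369 and 1216, then 39 and 98. RLE factors, library size alone, no filter and a filter of 1 CPM in 3 libraries kept each of these counts within 1.5 times. Library size alone moved the median log2 change of all genes to 0.103 in CM-JAKi against CM, where 14 members were then lower.

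With 1 library left out, members called in CM against MG-CM ranged over 1 to 15 higher and 0 to 1 lower, and all genes over 45 to 523 and 86 to 521. In CM-JAKi against CM members ranged over 1 to 4 higher and 7 to 18 lower, and all genes over 512 to 1161 and 479 to 1160. In CM-JAKi against MG-CM members stayed at 0 and all genes ranged over 8 to 51 and 21 to 103. With 1 replicate number left out under the replicate block the same ranges were 6 to 10 and 0 to 3 for members and 243 to 1342 and 237 to 1446 for all genes, then 1 to 5 and 8 to 16, and 764 to 2212 and 668 to 1981, and last 0 for members and 6 to 510 and 15 to 485 for all genes. MG-CM replicate 2 mattered most in CM against MG-CM: without it 1 of the 10 higher calls and 0 of the 1 lower remained, while all 11 were kept with the replicate block. Without CM-JAKi replicate 2, 7 of the 15 lower and 1 of the 4 higher calls in CM-JAKi against CM remained. No called member turned sign in its comparison under any alternative. Of members not called, 8 turned in CM against MG-CM, 6 in CM-JAKi against CM and 13 in CM-JAKi against MG-CM, in at least 1 alternative each. Their log2 changes were at most 0.147, 0.354 and 0.279 in size in the main fit. After turning they were at most 0.116, 0.216 and 0.292 in size, and 0 passed the test. In CM against MG-CM these were Pfkfb3, Pfkfb4, Eno2, Pdk3, G6pdx, Pgls, Taldo1 and Pfkm, the last at 0.003857 without replicate 2 with the replicate block. The causes were not tested. The fewest counts of a member in a library were 74, for Pdk2 in CM replicate 1, and depth was not varied.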
